A study of Homo sapiens with 6 samples.

Results

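The let-7-linked oncofetal genes LIN28A, LIN28B, HMGA1, HMGA2, IGF2BP1, IGF2BP2 and IGF2BP3 are 7 of the 78932 gene IDs in the deposited RNA-seq table. They were chosen by name, with their levels in these same libraries already known, as a set in which overexpression of HIF-1β and the wild type differed. Their differences are therefore given as a description, with no test. The cells carried the label A549, an established lung adenocarcinoma line, and all were kept in RPMI medium, to which serum, L-glutamine and antibiotics were added. The labels give 3 libraries the genotype wild type and 3 the genotype HIF1B overexpression, with the treatment field reading transfection for both and nothing on whether it was transient or stable. HIF-1β is the protein of ARNT, the partner of the hypoxia-inducible factors. The series title ties it to mTORC2 and to a sphingolipid vulnerability of lung cancer. The labels conflict on the RNA, naming polyA RNA in one field and, in another, a stranded kit for total RNA that removes ribosomal RNA. They do not say whether a group's libraries are separate cultures, so SDs and p-values cover the spread among these libraries alone, and that spread may be technical.

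LIN28A and LIN28B bind the terminal loop of let-7 precursors and block their maturation, and mature let-7 represses LIN28 mRNAs in turn. HMGA1 and HMGA2 are small chromatin proteins that bind the minor groove of AT-rich DNA, and IGF2BP1, IGF2BP2 and IGF2BP3 are cytoplasmic proteins that bind and stabilise mRNAs, including m6A-modified ones. Most of these genes are active in embryonic tissue, are low in most adult tissue and are found again in many tumours. HMGA2 and IGF2BP1 are textbook let-7 targets, through several sites in their 3′ untranslated regions.

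The let-7 seed, bases 2 to 8 of the mature miRNA, is what all these genes share on paper, so it is shown here beside the sites it pairs with. All 9 mature let-7 names, made from 12 hairpin genes, had the seed GAGGUAG. The first is shown as the family's model and the others because the transcripts that host their hairpins differed between the groups. The seed is in capitals and the sequences are from RefSeq (GRCh38.p14).
hsa-let-7a-5p: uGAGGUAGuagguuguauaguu
hsa-let-7c-5p: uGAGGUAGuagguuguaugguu
hsa-let-7e-5p: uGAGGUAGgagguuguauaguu
hsa-let-7i-5p: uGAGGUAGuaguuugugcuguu
The loop between the arms is the part LIN28 proteins bind, and GGAG is the motif they are known to recognise. GGAG was present in the loop of 9 of the 12 hairpins. The let-7g loop, from the hairpin at chr3:52268278-52268361 on the minus strand, holds it, in capitals, and the loop of MIRLET7A3, at chr22:46112749-46112822 on the plus strand, does not.
MIRLET7G loop: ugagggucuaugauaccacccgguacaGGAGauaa
MIRLET7A3 loop: uggggcucugcccugcuaugggauaa

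The complement of the seed is CTACCTC, and with a following A, which strengthens pairing, it is CTACCTCA. These letters were searched on the transcribed strand of one 3′ untranslated region per gene (GENCODE 29, GRCh38). The 7 genes held 16 sites of at least 7 bases, 9 of them of 8 bases. Each window below is 22 bases, is written 5′ to 3′ on the RNA strand and ends with the site, whose matching bases are in capitals. All 4 sites of HMGA2 are shown, and the first site of each other gene.
HMGA2 site 1, chr12:65963299-65963320, plus strand: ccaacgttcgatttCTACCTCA
HMGA2 site 2, chr12:65964534-65964555, plus strand: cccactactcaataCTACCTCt
HMGA2 site 3, chr12:65964946-65964967, plus strand: tgacttgcaaagacCTACCTCc
HMGA2 site 4, chr12:65965799-65965820, plus strand: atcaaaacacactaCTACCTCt
IGF2BP1 site 1, chr17:49051062-49051083, plus strand: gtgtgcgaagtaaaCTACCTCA
LIN28B site 1, chr6:105078813-105078834, plus strand: cccggttgcaaagtCTACCTCA
LIN28A site 1, chr1:26427349-26427370, plus strand: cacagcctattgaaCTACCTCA
IGF2BP2 site 1, chr3:185644220-185644241, minus strand: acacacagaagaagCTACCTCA
IGF2BP3 site 1, chr7:23311795-23311816, minus strand: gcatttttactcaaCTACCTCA
HMGA1 site 1, chr6:34245830-34245851, plus strand: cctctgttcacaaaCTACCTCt

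Library totals were 17192161 to 24454236 estimated counts, and 16091 genes were tested with the edgeR quasi-likelihood test. ARNT, the gene to be overexpressed, stood at 139 ± 8.30 CPM (reads scaled to a common library total) in the overexpression libraries and 43.7 ± 5.67 in the others (SD, n = 3 each). The libraries labelled wild type go against their cell line label: MTAP, which A549 cells are known to have lost, was at 78.1 ± 5.01 CPM there and at 0.400 ± 0.234 CPM under overexpression. SMARCA4, which A549 cells are known to lack as a protein, was at 201 ± 4.33 against 15.6 ± 1.83 CPM. They are called the libraries labelled wild type throughout, and HIF-1β overexpression and a difference in cell identity cannot be told apart as the source of any difference below. All 7 epithelial marker genes passed the test, 6 higher and 1 lower, where 74.0% of all tested genes passed. Among them were CDH1 at 228 ± 24.97 against 0.672 ± 0.793 CPM (log2 fold change 8.54, and 9.90 without wild type replicate 1) and KRT19 at 0.497 ± 0.132 against 207 ± 17.1 CPM. EPCAM, CLDN4 and CDH1, with 1, 6 and 36 reads in the libraries labelled wild type, entered the test through the overexpression libraries. KRT19, with 34 reads under overexpression, entered through the others. Nothing is read from that count. None of 4 endothelial markers was tested, and their sum was at most 0.243 CPM in any library. Of 6 fibroblast markers, COL1A1 rose and PDGFRB fell, COL1A2 was at 0 reads, and the sums were 8.28 to 8.98 CPM under overexpression and 1.84 to 2.37 CPM in those labelled wild type. PDGFRB, with 3 reads under overexpression, entered the test through the libraries labelled wild type. Of 5 immune markers, CD68 alone was tested and rose, the leukocyte genes PTPRC and CD3E were at 0 reads, and the sums were 28.8 to 36.8 against 15.3 to 16.1 CPM. The part of these epithelial, fibroblast and immune markers in the members' values was not tested. In bulk RNA, fewer cells of a type and less RNA per cell cannot be told apart.

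Of the 7 oncofetal genes, LIN28B, HMGA1, HMGA2, IGF2BP1 and IGF2BP2 were higher in the overexpression libraries, IGF2BP3 was lower, and LIN28A had 0 reads in all 6. For the 6 genes with reads, the ranges of the groups did not overlap. The background of this comparison was wide: the ranges of 77.3% of all tested genes did not overlap (39.9% higher and 37.4% lower), and 74.0% passed the test (38.3% higher and 35.7% lower). Nothing is read from the members' count, since the same contrast chose them. The members spanned a range of sizes, from HMGA1, whose difference 33.5% of all tested genes matched or passed in size, to IGF2BP1, which 2.44% did.

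**Figure D1:**
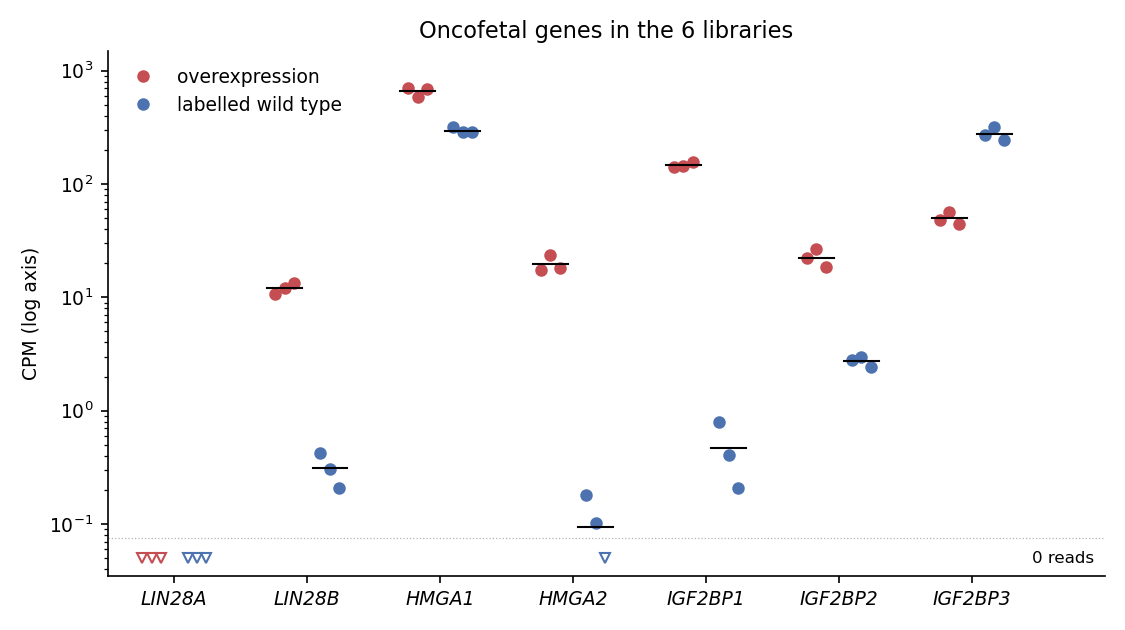
CPM of each gene in each library on a log axis, with points for libraries and bars for group means, for the 3 overexpression libraries and the 3 labelled wild type. IGF2BP3 is the gene whose points lie lower under overexpression, and LIN28A is at 0 reads throughout.

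LIN28A (ENSG00000131914, chr1:26410778-26429722, plus strand) was not detected. With 0 reads in each group, counting error alone allows up to 0.0439 CPM over the overexpression libraries and 0.0501 CPM over those labelled wild type, taking 3 counts as the limit. Its processed copies LIN28AP1 and LIN28AP2 also had 0 reads in every library.

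LIN28B (ENSG00000187772, chr6:104936616-105083332, plus strand), the LIN28 paralogue often active in cancers, had 247, 267 and 312 reads in the overexpression libraries and 7, 6 and 5 in those labelled wild type. In CPM these were 10.6, 12.2 and 13.5 against 0.425, 0.307 and 0.209. All overexpression libraries were high, all others were near 0, and the groups were far apart. The means were 12.1 ± 1.43 and 0.314 ± 0.108 CPM (SD, n = 3 each), a 38.5-fold difference, with a fitted log2 fold change of 5.29 (SE 0.26). On summed reads the ratio was 40.2, with a 95% counting interval of 25.3 to 68.2. Its antisense gene LIN28B-AS1, which overlaps 67 of its 6002 exonic bases, had 0 reads in every library.

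HMGA1 (ENSG00000137309, chr6:34236873-34246231, plus strand), the HMGA gene that proliferating tumour cells commonly express, had by far the highest level of the set. It stood at 704, 590 and 694 CPM under overexpression and at 316, 285 and 285 CPM in the libraries labelled wild type. The lowest overexpression library was still above the highest of the others. The means of 662 ± 63.1 and 295 ± 17.5 CPM differed 2.24-fold, with a log2 fold change of 1.17 (SE 0.08). Its processed pseudogenes, which can trade reads with it in salmon's estimates, were near 0: HMGA1P4 had at most 13 reads in a library and HMGA1P8 at most 26, HMGA1P2 had at most 5, HMGA1P3 had 1 read in all, and HMGA1P1, HMGA1P5, HMGA1P6 and HMGA1P7 had none.

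HMGA2 (ENSG00000149948, chr12:65824131-65966295, plus strand), the fetal member of the family, went from almost no reads to a modest level. Its reads were 403, 518 and 423 in the overexpression libraries and 3, 2 and 0 in those labelled wild type. The corresponding levels were 17.3, 23.7 and 18.2 CPM against 0.182, 0.102 and 0 CPM. All libraries labelled wild type were at or next to 0, and the overexpression libraries lay far above them. The ratio of the means, 19.7 ± 3.44 against 0.0948 ± 0.0913 CPM, was 208. With only 5 reads in the lower group, the counting interval of the ratio of summed reads, 236, runs from 101 to 727. The fitted log2 fold change was 7.78 (SE 0.38), and it was 8.56 without wild type replicate 1 and 7.07 without wild type replicate 3. RPSAP52 and HMGA2-AS1, transcribed from the opposite strand of the locus, had 0 reads in every library. Both HMGA genes were thus higher under overexpression, yet HMGA1 made up nearly all of the family's 682 ± 59.6 CPM there and of the 296 ± 17.6 CPM in the libraries labelled wild type. The ratio of HMGA2 to HMGA1 in CPM was 0.0304 ± 0.00854 and 0.000312 ± 0.000291.

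The IGF2BP genes did not move together. IGF2BP1 (ENSG00000159217, chr17:48997412-49055650, plus strand), which shields MYC and other mRNAs from decay, was at 141, 144 and 156 CPM under overexpression and at 0.789, 0.409 and 0.209 CPM in the libraries labelled wild type, or 3287, 3141 and 3606 reads against 13, 8 and 5. It was abundant in every overexpression library and barely detected elsewhere. The means were 147 ± 7.69 and 0.469 ± 0.294 CPM, 313-fold apart, with a log2 fold change of 8.38 (SE 0.18) and a ratio of summed reads of 338 (95% counting interval 231 to 518).

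IGF2BP2 (ENSG00000073792, chr3:185643739-185825056, minus strand), the IGF2BP that adult tissues keep and a locus linked to type 2 diabetes, was at 22.4, 26.5 and 18.4 CPM under overexpression and at 2.79, 2.97 and 2.43 CPM in the libraries labelled wild type. The groups were well apart, although the overexpression libraries varied among themselves by more than the whole level of the others. The same held for LIN28B, HMGA2 and IGF2BP1. The means of 22.4 ± 4.07 and 2.73 ± 0.274 CPM differed 8.22-fold, with a log2 fold change of 3.04 (SE 0.18). The antisense gene IGF2BP2-AS1 had a single read in all.

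IGF2BP3 (ENSG00000136231, chr7:23310209-23470467, minus strand), the family member used as an oncofetal tumour marker, ran the other way. It was at 48.2, 57.2 and 44.7 CPM under overexpression and at 270, 322 and 246 CPM in the libraries labelled wild type. Every overexpression library was far below every other library. The means of 50.02 ± 6.41 and 279 ± 38.7 CPM made a 5.58-fold lower level, with a log2 fold change of -2.48 (SE 0.12). Of its 8511 exonic bases, 1521 (17.9%) also lie in exons of MALSU1, a mitochondrial ribosome assembly factor gene on the opposite strand. MALSU1 fell as well, from 50.9 ± 3.75 to 24.6 ± 1.02 CPM (log2 fold change -1.05, SE 0.08, adjusted p = 1.02e-06). No source used here gives the strand setting of the quantification, so reads in the shared bases cannot be told apart.

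Summed over the family, the groups stood closer. IGF2BP mRNA totalled 212, 227 and 219 CPM in the overexpression libraries and 273, 325 and 249 CPM in those labelled wild type, 219 ± 7.80 against 282 ± 39.0 CPM. These totals, which add genes of unlike length, were lower in every overexpression library. The make-up differed by far more. The ratio of IGF2BP1 to IGF2BP3 in CPM was 2.97 ± 0.484 under overexpression and 0.00168 ± 0.00110 in the libraries labelled wild type. On a per-length scale (CPM per kilobase of exon, all GENCODE 29 transcripts merged), IGF2BP1 made up 60.4% ± 4.52 of the family under overexpression, IGF2BP2 17.7% ± 2.62 and IGF2BP3 21.9% ± 1.93 (SD, n = 3). In the libraries labelled wild type, IGF2BP3 made up 98.1% ± 0.180, IGF2BP2 1.73% ± 0.0966 and IGF2BP1 0.154% ± 0.100. The shares rest on the exon length used. IGF2BP3 has 4.25 kb of exon in the basic transcripts and 8.511 kb in all, and with basic lengths IGF2BP1 was 50.3% ± 4.56 and IGF2BP3 33.2% ± 2.40 under overexpression.

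**Figure D2:**
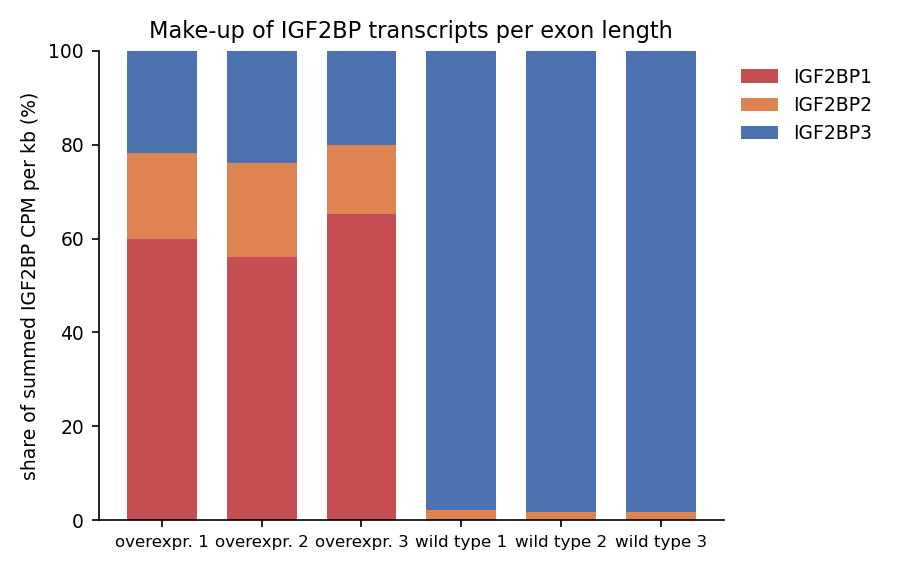
Share of each IGF2BP gene in the family's CPM per kilobase of exon (all GENCODE 29 transcripts), as stacked bars for each of the 6 libraries. IGF2BP3 fills 97.9% or more of every bar labelled wild type, and IGF2BP1 fills 56.1% to 65.1% of the overexpression bars.

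Levels of different genes can be compared only per length. In CPM per kilobase, the order under overexpression was HMGA1 at 285 ± 27.1, IGF2BP1 at 16.1 ± 0.844, IGF2BP3 at 5.88 ± 0.753, IGF2BP2 at 4.74 ± 0.860, LIN28B at 2.01 ± 0.238 and HMGA2 at 1.28 ± 0.224. The group ranges of IGF2BP3 and IGF2BP2 overlapped, although within each library IGF2BP3 was the higher. Per length, IGF2BP2 made up 18.3%, 19.9% and 14.8% of the family, and IGF2BP3 21.9%, 23.9% and 20.1%. The gap rests on the exon length used: with basic lengths the means were 16.5% and 33.2%. In the libraries labelled wild type the order was HMGA1 at 127 ± 7.53, IGF2BP3 at 32.8 ± 4.55, IGF2BP2 at 0.576 ± 0.0579, LIN28B at 0.0523 ± 0.0180, IGF2BP1 at 0.0515 ± 0.0323 and HMGA2 at 0.00615 ± 0.00592. There LIN28B and IGF2BP1 did not differ beyond their spread. HMGA2 is placed low in part by its 15.403 kb of merged exon, a union of alternative ends of which any 1 transcript uses a part.

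Some short transcripts inside these loci were found after their values were seen. AC091133.2, an antisense gene that overlaps 37 exonic bases at the start of IGF2BP1, had 23, 33 and 35 reads in the overexpression libraries and 0 in all others. AC091133.4, a processed pseudogene within IGF2BP1 on the same strand, had 7, 2 and 6 reads against 0. Both were read only where IGF2BP1 itself was abundant. AC091133.3, the other antisense gene of the locus, had 0 reads in every library.

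The let-7 sites divided the members by number. LIN28B, HMGA2 and IGF2BP1 each had 4 sites of at least 7 bases, with untranslated regions of 4.549, 3.003 and 6.206 kb, and LIN28A, HMGA1, IGF2BP2 and IGF2BP3 had 1 each. Of 18463 genes with an annotated 3′ untranslated region of at least 50 bases, 8.81% had a 7-base site and 3.35% an 8-base one. At least 4 sites were found in 0.0650% of genes, 12 in all, of which 3 are members. Among genes whose untranslated region was within 20% of the same length, as many sites were found in 0.107% for HMGA2, 0.248% for LIN28B and 0.595% for IGF2BP1. These are shares of 1871, 1212 and 672 genes, and each share includes the member itself. A match is a description of letters, not evidence of repression. The genes with 4 sites were those at log2 fold changes of 5.29, 7.78 and 8.38, and those with 1 site stood at 3.04, 1.17 and -2.48, over 6 genes chosen with these values known.

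Genes outside the set with as many sites moved both ways. Several of these genes are given here. NR6A1, an orphan nuclear receptor of the embryo, rose from 0.975 ± 0.629 to 7.69 ± 0.378 CPM (log2 fold change 2.93, SE 0.35, adjusted p = 2.26e-05, and 3.61 without wild type replicate 3), and LIMD2 rose from 0.821 ± 0.621 to 6.36 ± 0.914 CPM (2.98, SE 0.43, adjusted p = 9.43e-05). SMC1A, a cohesin subunit gene (-0.46, adjusted p = 7.30e-05), ZBTB37 (-0.65, adjusted p = 0.000422) and HEMK1 (-0.29, adjusted p = 0.0366) fell. HIC2 was at 0.27 and did not pass (adjusted p = 0.0956). TRIM71, the stem-cell gene with 6 sites, and IGDCC3 were too low to test. Among the other tested genes the median log2 fold change was -0.01 with no site (11418 genes), 0.03 with 1 site (1142 genes), 0.01 with 2 (122 genes) and -0.11 with 3 or more (22 genes, 6 higher and 11 lower). The untranslated regions lengthen over these groups, with medians of 1017, 2582.5, 4701.5 and 6447.5 bases.

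**Figure D3:**
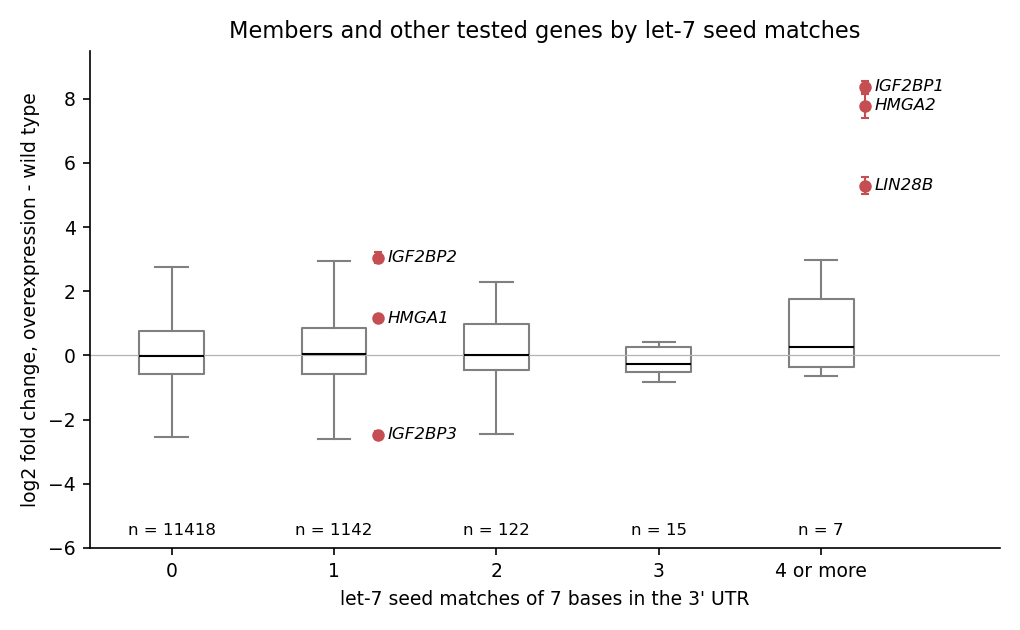
Log2 fold change (overexpression minus wild type) against the number of 7-base let-7 seed matches in the 3′ untranslated region, with boxes (median, quartiles, whiskers to 1.5 times the interquartile range) for other tested genes and red points with SE bars for the 6 tested members. LIN28B, HMGA2 and IGF2BP1 lie above the box for 4 or more sites, and IGF2BP3 lies below the box for 1 site.

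Mature let-7 was not measured by these libraries. The 12 hairpin genes had 0 reads in all 6, and the longer transcripts listed as their hosts gave no common direction. Of 8 tested transcripts listed as hosts, 2 rose, 3 fell and 3 did not pass. MIR99AHG, which hosts let-7c, fell from 8.83 ± 0.911 to 1.25 ± 0.303 CPM (log2 fold change -2.82, SE 0.23, adjusted p = 1.21e-06). MIRLET7IHG, which hosts let-7i, fell by 0.89 on the log2 scale (adjusted p = 0.00374), and MIRLET7A1HG fell by 0.76 (adjusted p = 0.0121, and 0.0522 without replicate 3 of the overexpression group). MIRLET7A1HG was listed by its name, and its annotated span, chr9:94176458-94177892, holds no let-7 hairpin. No annotated transcript of another gene on the same strand spanned the hairpins MIRLET7A1, MIRLET7F1 and MIRLET7D. SPACA6, which hosts let-7e, rose by 1.06 (adjusted p = 0.000321), and HUWE1, which hosts let-7f-2 and miR-98, rose by 0.39 (adjusted p = 0.00126). MIRLET7BHG at -0.32 (adjusted p = 0.114, and -0.48 with adjusted p = 0.0369 without the same replicate), MIR100HG at -0.26 (adjusted p = 0.290) and WDR82, the host of let-7g, at 0.06 (adjusted p = 0.384) did not pass. A host's RNA level is not the level of the miRNA cut from it.

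The genes around this axis were taken from lists of textbook members, each read against the 74.0% of all tested genes that passed and their median log2 fold change of 0.03. Of 18 genes of let-7 maturation and decay, 5 rose, 5 fell and 8 did not pass, with a median of -0.02. MSI1, a neural stem-cell protein that works with LIN28, rose from 1.46 ± 0.303 to 3.57 ± 0.715 CPM (1.27, adjusted p = 0.00146), and TUT7, one of the uridylating enzymes LIN28 recruits, rose by 0.52 (adjusted p = 0.000709). TRIM25, a cofactor of LIN28A in that step, fell by 1.03 (adjusted p = 1.30e-07) and XPO5, the exporter of miRNA precursors, fell by 0.74 (adjusted p = 3.12e-06). HNRNPA1, which binds the let-7a-1 loop, was at 0.06 (adjusted p = 0.482).

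Other known let-7 targets were split. Of 26 listed, 22 were tested, and 8 rose, 9 fell and 5 did not pass, with a median of 0.13. NR6A1, above, rose, and MYCN, too low to test, had 41 reads against 1, a ratio of 35.9 (95% counting interval 6.10 to 1454). CDK6, a cell-cycle kinase, fell from 307 ± 14.01 to 78.2 ± 11.3 CPM (-1.97, adjusted p = 2.29e-08). MYC, the growth-promoting transcription factor, fell from 305 ± 32.6 to 105 ± 5.71 CPM (-1.55, adjusted p = 5.74e-08), and IRS2, an insulin receptor substrate, fell by 1.45 (adjusted p = 3.59e-07). CCND1, cyclin D1, was at 0.17 (adjusted p = 0.195), and passed at 0.17 with the replicate block (adjusted p = 0.0219) and at 0.26 without replicate 2 of the overexpression group (adjusted p = 0.0439).

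**Figure D4:**
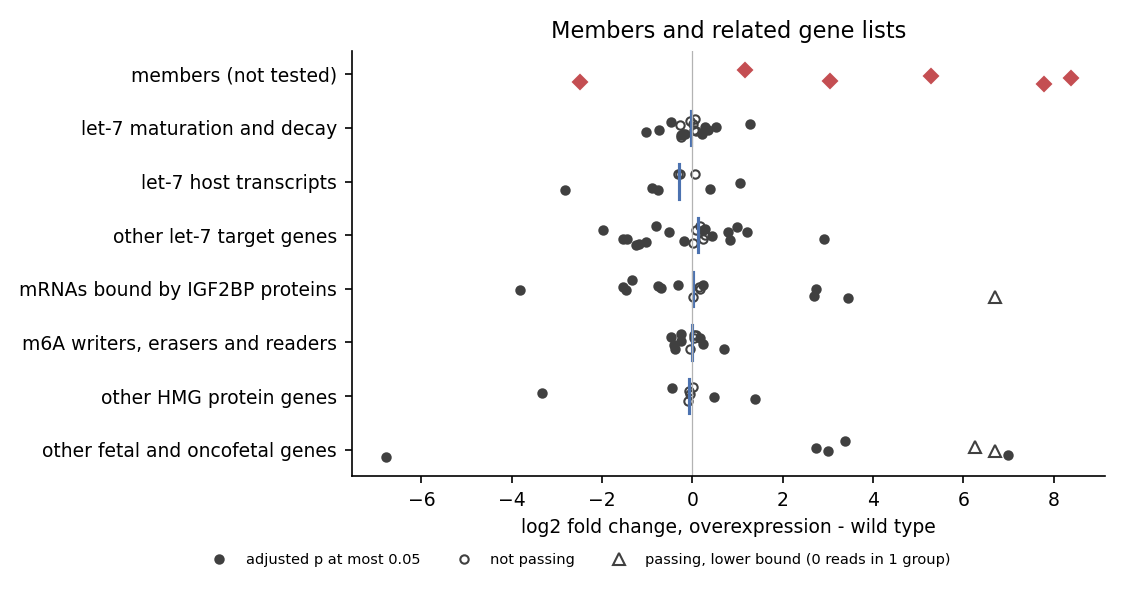
Log2 fold change (overexpression minus wild type) of each tested gene in the oncofetal set and in the lists around it, 1 point a gene, with a bar at the median of each list other than the set itself and the fetal genes. The lists of let-7 targets, IGF2BP-bound mRNAs and m6A factors spread to both sides of 0, and open triangles mark genes undetected in the wild-type group, at their lower bounds.

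Of 10 other fetal and oncofetal genes, 7 were tested, 6 rose and 1 fell. H19, CEACAM5, SALL4 and IGF2, with 0, 0, 11 and 9 reads in the libraries labelled wild type, entered the test through the overexpression libraries. GPC3, with 9 reads under overexpression, entered through the others. Nothing is read from the count of genes that rose and fell, and the adjusted p-values of these genes are not read as support. PEG10, a retrotransposon-derived imprinted gene of the placenta, rose from 3.06 ± 0.722 to 391 ± 20.3 CPM (6.99, adjusted p = 2.39e-11). H19, the imprinted RNA next to IGF2, had 355 reads against 0, at least 105-fold higher (adjusted p = 5.94e-06), and CEACAM5, carcinoembryonic antigen, had 261 reads against 0, at least 76.8-fold higher (adjusted p = 4.78e-06). Those bounds take 3 counts over the libraries labelled wild type. GPC3, a fetal liver proteoglycan, fell from 15.2 ± 3.01 to 0.135 ± 0.166 CPM (-6.79, adjusted p = 2.21e-07, and -8.28 without overexpression replicate 2). Pluripotency markers were mostly too low to test: of 12, SALL4 (3.01, adjusted p = 0.000525, and 4.25 without wild type replicate 2) and DNMT3B (1.39, adjusted p = 2.90e-05) rose, and SOX2 fell (-0.40, adjusted p = 0.0271). Of the 9 not tested, POU5F1, the defining stem-cell factor, had 43 reads against 0, whereas DPPA2 and ZFP42 had 0 against 9 and 4. NANOG, DPPA4 and LEFTY1 had at most 3 reads in all, and PRDM14, TDGF1 and L1TD1 had none. SOX2 did not pass without overexpression replicate 1 (adjusted p = 0.0932), overexpression replicate 3 (adjusted p = 0.0971) or wild type replicate 2 (adjusted p = 0.0736).

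The mRNAs known to be bound by IGF2BP proteins differed both ways, beside the lower IGF2BP3 and higher IGF2BP1 of the overexpression libraries. Of 15 tested, 5 rose, 7 fell and 3 did not pass, with a median of 0.02. IGF2 and H19 among them, with 9 and 0 reads in the libraries labelled wild type, entered the test through the overexpression libraries. Their adjusted p-values are not read as support. IGF2, the growth factor that named the family, rose from 0.144 ± 0.0571 to 1.03 ± 0.812 CPM (2.73, adjusted p = 0.00369), with 13, 43 and 13 reads under overexpression. A single library carried much of that mean, and without it, overexpression replicate 2, the log2 fold change was 1.87 (adjusted p = 0.0158). GLI1, the Hedgehog transcription factor, rose from 2.34 ± 0.736 to 25.7 ± 2.80 CPM (3.44, adjusted p = 6.69e-08), whereas ABCB1, the multidrug transporter, fell from 20.4 ± 5.29 to 1.46 ± 0.531 CPM (-3.81, adjusted p = 3.96e-07). MYC, an IGF2BP1-stabilised mRNA in other cells, is on this list too and fell, and ACTB was at 0.16 (adjusted p = 0.266, and 0.31 with adjusted p = 0.0138 without replicate 2 of the wild type). Of 12 writers, erasers and readers of m6A, 3 rose, 5 fell and 4 did not pass, with a median of -0.02. VIRMA, a subunit of the writer complex, rose by 0.70 (adjusted p = 2.81e-06). RBM15 (-0.46, adjusted p = 0.00192), YTHDF2 (-0.40, adjusted p = 0.00493) and WTAP (-0.37, adjusted p = 0.00399) fell, and the eraser FTO was at -0.06 (adjusted p = 0.443). The count for this list fell to 5 of 12 without replicate 1 of the wild type.

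The other HMG protein genes gave a background for HMGA1 and HMGA2. Of 8 tested, 2 rose, 2 fell and 4 did not pass, with a median of -0.06. HMGB3 rose from 132 ± 2.89 to 345 ± 32.5 CPM (1.39, adjusted p = 5.82e-08) and HMGN3 by 0.49 (adjusted p = 0.000701), while HMGN5, a nucleosome-binding protein, fell from 45.3 ± 4.74 to 4.52 ± 0.513 CPM (-3.32, adjusted p = 2.32e-09) and HMGN2 fell by 0.45 (adjusted p = 0.000219). HMGB1 was at -0.06 (adjusted p = 0.485).

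Around each member, the 5 nearest tested protein-coding genes on each side were taken, to be read against the 38.3% of all tested genes that rose and the 35.7% that fell. Around LIN28B 2 rose and 7 fell, with a median log2 fold change of -0.47. Around HMGA1 3 rose and 7 fell (-0.25), around HMGA2 2 rose and 5 fell (-0.12), around IGF2BP2 1 rose and 6 fell (-0.34), and around IGF2BP3 2 rose and 5 fell (-0.58). RPS10-NUDT3, among those that fell around HMGA1, overlaps NUDT3 and RPS10, which also fell, so these are not separate loci. Around LIN28A, itself silent, 3 rose and 5 fell (-0.20). Around IGF2BP1 7 rose and 1 fell (0.49). Large differences stood among the genes taken around several members, whatever the member's own direction. CRYBG2, next to the silent LIN28A, had 280 reads against 4, 62.9-fold higher (adjusted p = 1.68e-07). PACSIN1, 229 kb from HMGA1, had 237 against 6, 32.2-fold higher (adjusted p = 2.36e-05). GSDME, 1388 kb from the lower IGF2BP3, had 2798 against 109, 21.8-fold higher (adjusted p = 7.95e-09). Beside IGF2BP1, the gene just before it, GIP, an incretin hormone gene whose start lies 38.9 kb away, was at 1.08 ± 0.0564 CPM against 0 reads, at least 21.6-fold higher (adjusted p = 4.39e-05). The tested gene just after it, PHOSPHO1, a skeletal mineralisation phosphatase gene 226 kb away, was at 0.829 ± 0.209 CPM against 0 reads, at least 16.6-fold higher (adjusted p = 0.000135). Both were undetected in the libraries labelled wild type, where IGF2BP1 was barely read. Genes with 0 reads in a group could pass the filter on low counts only through the other group. The same holds for CRYBG2 and PACSIN1, with 4 and 6 reads in the libraries labelled wild type. The adjusted p-values of these genes are not read as support. These neighbours were picked out after their values were seen, and whether the loci differ in this was not tested.

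**Figure D5:**
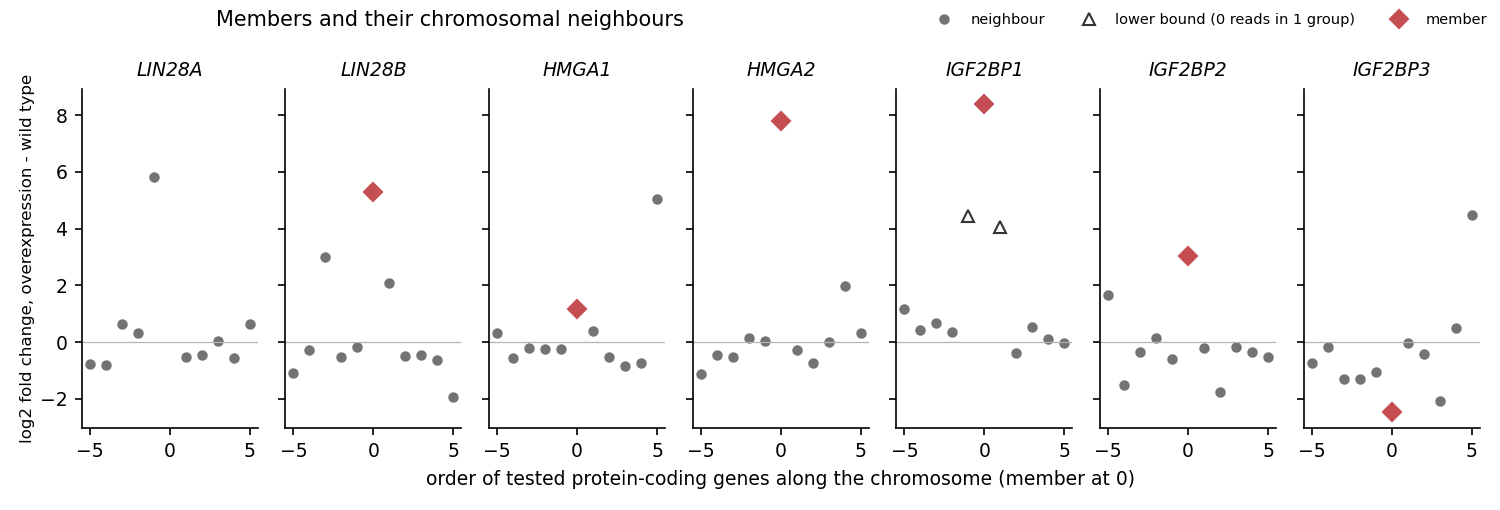
Log2 fold change (overexpression minus wild type) of each member, as a red diamond at 0 on the horizontal axis, and of the 5 nearest tested protein-coding genes on each side, in chromosomal order. LIN28A has no diamond because it had no reads, and open triangles mark GIP and PHOSPHO1, undetected in the wild-type group, at the lower bounds of their differences.

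HIF-1β dimers bind DNA through ACGTG or GCGTG cores, and dimers of HIF-1β with itself bind CACGTG. RefSeq promoter windows of 300 bases, most of them before the start (GRCh38.p14), searched on both strands, were at hand for LIN28B, HMGA1, IGF2BP2 and IGF2BP3, and not for LIN28A, HMGA2 and IGF2BP1. The window of IGF2BP3 had 5 matches to ACGTG, which include those within its 2 CACGTG palindromes. Each palindrome holds ACGTG on both strands and so counts as 2 matches at 1 place. LIN28B had 1 ACGTG in one window, and 2 within a CACGTG in the other. HMGA1 had 2 GCGTG in one window and no match in the other, and both IGF2BP2 windows had none. Of 35116 windows, 21.4% held ACGTG, 36.5% GCGTG and 7.26% CACGTG. Such letters say nothing about binding.

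The genes with the pattern most like each member were sought by the root mean square difference of log2 CPM, centred on each gene's mean, over the 6 libraries. For LIN28B they were NAV1 (0.145), KCNK6 (0.153) and CGAS (0.160). For HMGA1 they were YIF1B (0.0425), EMP3 (0.0469) and NTAN1 (0.0576), and for HMGA2 they were AXIN2 (0.179), LRRK1 (0.248) and FGB (0.263). For IGF2BP1 they were VCAN (0.205), NRP2 (0.220) and GPX2 (0.227), and for IGF2BP2 TP53I11 (0.0875), EXOC3L2 (0.0951) and CAMK2N1 (0.0961). For IGF2BP3, the gene that was lower, they were KLF4 (0.0628), COL4A5 (0.0795) and EVI5L (0.0834). EXOC3L2 was undetected in the wild-type group, so its place rests on the prior count of 2. CGAS and GPX2, also low there, moved in fold change by over 1.5 times without wild type replicate 1. No member was among the nearest 3 of another. With 6 libraries in 2 groups, likeness here is mostly the size of the difference between the groups.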

How the data were processed

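The members and gene lists were chosen with earlier results of these data known. The deposited values are estimated counts per gene, which the name of the deposited table credits to salmon. The submitters' processing notes name bcl2fastq 2.20 and GRCh38. No source used here gives salmon's version, the annotation or the strand setting. Another 6 columns of per-sample values match no sample's labels and stayed unused. At most 9.51% of a library's values were not whole (tolerance 1e-06), and all were rounded before testing. Symbols matched 61481 of 78932 IDs (77.9%). Positions and merged exon lengths are from GENCODE 29 (GRCh38, 1-based).

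edgeR 4.0.16 (R 4.3.3, limma 3.58.1) kept 16091 genes by filterByExpr (smallest count 10), scaled by TMM (factors 0.948 to 0.977 for wild type, 1.03 to 1.05 for overexpression) and ran the quasi-likelihood test on group alone, with p-values adjusted by Benjamini-Hochberg over all of these genes (threshold 0.05). "Rose" and "fell" mark genes past it. The fit was tested on simulated data. CPM use the scaled totals, folds are ratios of mean CPM, and ratios of summed reads carry exact 95% intervals for counting error only. DESeq2 1.42.0 was an alternative. Named genes are the members, their copies and antisense genes, the let-7 hosts, the label check genes (ARNT, MTAP, SMARCA4 and CDKN2A, the last with 0 reads throughout), in each list the 4 called genes of largest change with non-overlapping ranges and at least 1 CPM in a group plus the gene of highest CPM not passing, and the 3 most alike per member. Genes with 4 or more sites, overlapping genes and neighbours were added later, and 1 of the genes with 4 or more sites is not reported here.

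Replicate numbers pair libraries across groups by the labels, whose batch field repeats them. Deviations of same-numbered libraries correlated at 0.00134, 0.0963 and 0.022, and others at -0.0698 to 0.0474. No pair of libraries agreed within sampling noise (chi-square per degree of freedom 6.03 to 15.8).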

Additional observations from a re-analysis of the deposited data

How the results depend on the processing

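Over 12 alternatives no member changed direction: the log2 fold change was 5.02 to 5.52 for LIN28B, 1.12 to 1.28 for HMGA1, 7.07 to 8.56 for HMGA2, 7.94 to 8.89 for IGF2BP1, 2.90 to 3.17 for IGF2BP2 and -2.59 to -2.37 for IGF2BP3. The replicate block gave 11960 called genes against 11908 without it, and let CCND1 pass (0.17, adjusted p = 0.0219); of the named genes it changed no other call. All alternatives called 10986 to 13591 genes. Library totals alone moved the median of all tested genes from 0.03 to 0.15 and gave 6817 higher and 4993 lower against 6158 and 5750; no filter moved the median to 0.25. With library totals FTO turned to 0.051 and HMGB1 to 0.054, and HNRNPA1 ran from -0.013 (without wild type replicate 2) to 0.10 when single libraries were left out; none of the 3 passed in the main test, and the cause was not tested. With no filter on low counts more genes were tested, and 5 pluripotency, 4 fibroblast and 2 immune markers were called, against 3, 2 and 1. The 1 CPM filter left 1 fibroblast marker. Leaving out single libraries gave 5 to 8 called m6A genes. Of 66 other named genes tested, 2 lost and 4 gained a call under some alternative. With library totals SOX2 was lost (adjusted p = 0.0877), and CCND1 (0.28, adjusted p = 0.0495) and WDR82 (0.18, adjusted p = 0.0324) passed. The per-length shares were also computed with basic exon lengths, an alternative chosen after seeing the data. IGF2BP1 was then 50.3% and IGF2BP3 33.2% under overexpression, and IGF2BP2 was 1.08% and IGF2BP3 98.8% in the libraries labelled wild type. LIN28B, HMGA2 and IGF2BP1 had 18, 5 and 26 reads in the libraries labelled wild type, which limits the precision of their folds.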
